A study of Mus musculus with 12 samples.

Results

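Cell cycle and mitosis genes were followed in mouse skin sampled at tick bites. The group was fixed by name as 40 genes, and all 40 were found by symbol among the 25070 named genes of the deposited table and were among the 17064 genes tested. Each library came from total RNA of skin. The bitten skin was taken 4 days after tick attachment, and the labels give the naive skin the same day although it had no bite. The design asked how the skin response differs between a first and a repeated infestation. The labels give 5 groups: naive skin labelled as without a bite (n = 2), bitten skin at the 1st exposure (n = 3, here first exposure), bitten skin labelled ticks 2x (n = 3), bitten skin labelled ticks 3x (n = 3) and bitten skin labelled saliva immune (n = 1). The sources used here name no strain, sex, age or tick species. They also leave unsaid whether 2x and 3x count the sampled infestation and how saliva immunity was raised. The labels do not say that each library came from a separate animal, so p-values measure only the spread between these samples.

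Cells that divide first license their replication origins by loading the MCM helicase, then copy DNA with the help of PCNA and the nucleotide-making enzymes, and finally separate their chromosomes on a spindle driven by mitotic kinases and motors. Most of these genes are switched on in waves: E2F factors drive the early, DNA-replication wave, and B-MYB (Mybl2) and FOXM1 acting with the MuvB complex drive the later, mitotic wave. In skin, dividing cells lie mainly in the basal epidermis and, while hair grows, in the hair matrix at the base of the follicle. The genes are described below by role, namely 9 licensing genes, 4 DNA synthesis genes, 6 cyclins and transcription factors of S phase entry, 7 mitotic kinases, mitotic cyclins and their partners, 4 checkpoint and anaphase promoting complex genes, 8 kinetochore, spindle and motor genes, and the chromosome-bound pair Mki67 and Top2a.

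Values are CPM, that is, how many of every M (mega) reads in a library fell on a gene. They are not divided by gene length, so levels are compared between libraries and not between genes. Depth, estimated from the CPM value of 1 read, lay between 12.5 and 29.8 M reads per library, which puts a floor of 3 reads at 0.101 to 0.24 CPM (counting error only). The lowest value of any of the 40 genes in any library was 1.05 CPM, so none was near that floor. The libraries carried skin: Krt5, the basal keratinocyte keratin, was between 1660 and 4846 CPM. They differed widely in hair follicle transcripts. Krt71, an inner root sheath keratin, was at 1815 and 0.3 CPM in the naive libraries and at 5848, 6698 and 14.5 CPM after first exposure. It was at 5372, 33.8 and 0 CPM in ticks 2x, at 299, 1076 and 0.3 CPM in ticks 3x, and at 0.039 CPM in the saliva immune library. Whether that came from the number of follicles in a sample or from hair growth was not tested. The first exposure and saliva immune libraries also carry 1 series of sample titles (4 libraries) and the other 8 libraries another, so first exposure and title series cannot be told apart.

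The 40 genes moved across the libraries as a block. Their mean level, as log2(CPM + 1), was 4.27 and 3.77 in the naive libraries, 5.05, 5.09 and 4.28 after first exposure, 4.66, 4.38 and 3.74 in ticks 2x, 3.71, 4.16 and 3.16 in ticks 3x, and 4.25 in the saliva immune library. First exposure replicates 1 and 2 were the highest libraries and ticks 3x replicate 3 the lowest. The group means were 4.02 ± 0.35 (SD, n = 2) in naive skin, 4.81 ± 0.45 (SD, n = 3) after first exposure, 4.26 ± 0.47 (SD, n = 3) in ticks 2x and 3.68 ± 0.50 (SD, n = 3) in ticks 3x. The ranges of first exposure and ticks 3x did not overlap, while each of the other pairs of replicated bitten groups overlapped.

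**Figure D1:**
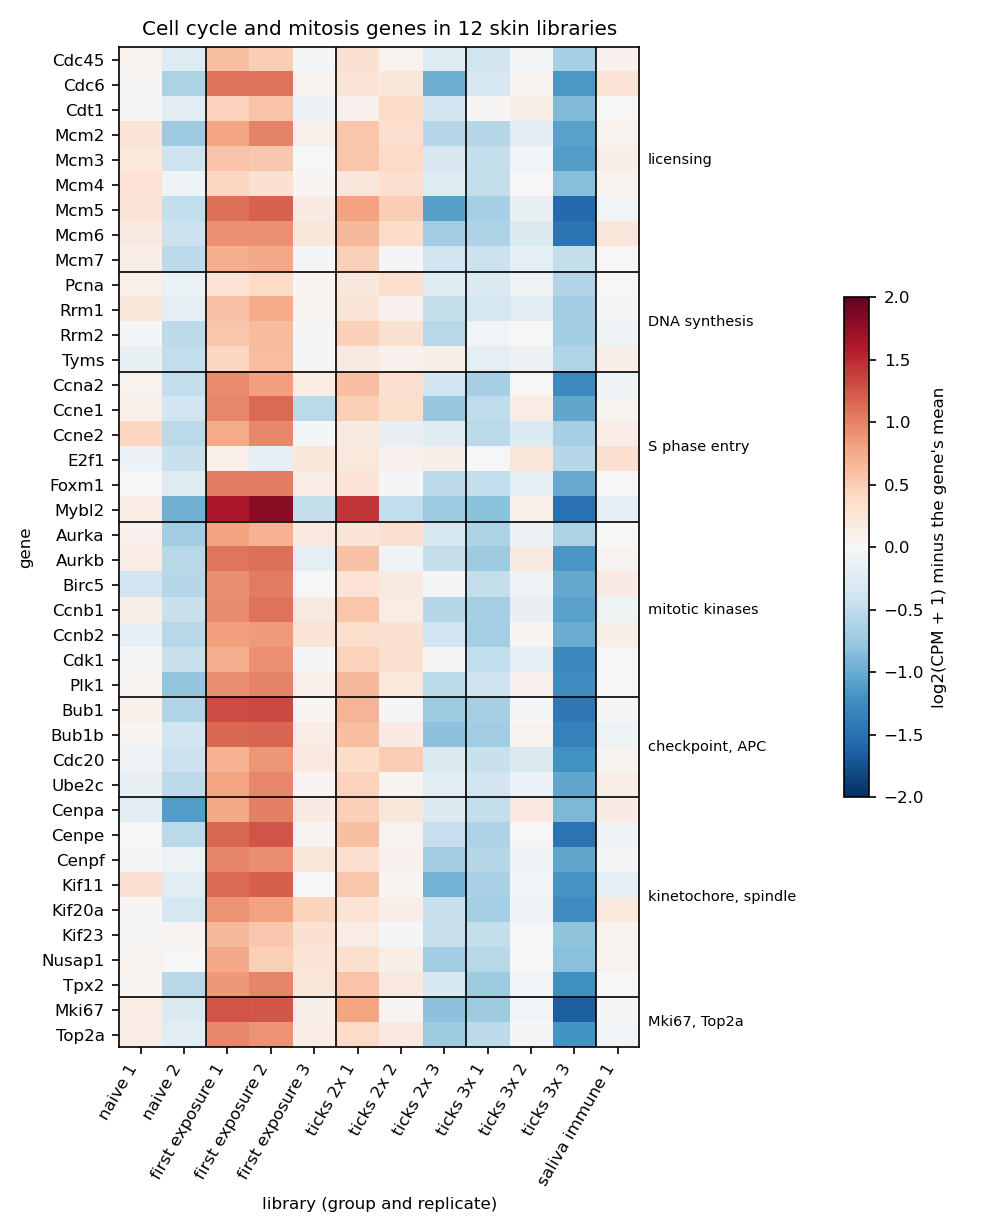
Level of each of the 40 genes (rows, by role) in each of the 12 libraries (columns, by group), as log2(CPM + 1) minus the gene's mean over the libraries; red is above and blue below that mean. First exposure replicates 1 and 2 are red in nearly every row and ticks 3x replicate 3 is blue in every row.

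Gene by gene the block held. Of the 40 genes, 39 had their highest level in first exposure replicate 1 or 2 (97.5%, against 28.0% of all genes tested), the exception being E2f1, which was highest in the saliva immune library. Likewise 37 had their lowest level in ticks 3x replicate 3 (92.5%, against 13.9% of all genes tested). The fold between a gene's highest and lowest library ran from 1.97 for Pcna to 14.8 for Mybl2, with a median of 4.64. The SD over the 12 libraries had a median of 0.60 on the log2 scale, against 0.32 over all genes tested. Differences between the 4 replicated groups held a median of 56.3% of a gene's variance (from 29.3% for Cdt1 to 71.6% for Kif20a), against 40.4% over all genes tested.

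Promoters of the genes are shown for the letters of the cell cycle promoter motifs. RefSeq promoter windows on GRCm38.p6, running from 250 bases before to 50 bases after a transcription start, were matched by symbol for 33 of the 40 genes in 34 windows (Mcm7 has a pair). Each line below gives a window 5′ to 3′ on the gene's strand, with every match of the motifs in capitals. They stand for the genes with the highest mean CPM, among those with a window that holds a motif, of 6 of the 7 roles, and all lie on the minus strand. These are Mki67 at chr7:135716330-135716629, Pcna at chr2:132253131-132253430, Mcm7 at chr5:138171217-138171516 (window 1), Cenpf at chr1:189688037-189688336, Ccnb1 at chr13:100786437-100786736 and Cdc20 at chr4:118437294-118437593. The windows of Pcna and window 1 of Mcm7 hold CCAAT letters only. Window 1 of Mcm7 lies wholly inside the annotated gene. The other Mcm7 window, at chr5:138171834-138172133 on the minus strand (window 2), was added after the matches were seen, as an example with E2F letters.
Mki67: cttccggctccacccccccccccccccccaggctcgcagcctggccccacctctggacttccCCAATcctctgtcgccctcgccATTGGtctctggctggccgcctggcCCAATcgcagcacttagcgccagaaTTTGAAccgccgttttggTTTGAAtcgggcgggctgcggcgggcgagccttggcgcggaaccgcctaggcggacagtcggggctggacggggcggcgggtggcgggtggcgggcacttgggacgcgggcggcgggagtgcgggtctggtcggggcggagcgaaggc
Pcna: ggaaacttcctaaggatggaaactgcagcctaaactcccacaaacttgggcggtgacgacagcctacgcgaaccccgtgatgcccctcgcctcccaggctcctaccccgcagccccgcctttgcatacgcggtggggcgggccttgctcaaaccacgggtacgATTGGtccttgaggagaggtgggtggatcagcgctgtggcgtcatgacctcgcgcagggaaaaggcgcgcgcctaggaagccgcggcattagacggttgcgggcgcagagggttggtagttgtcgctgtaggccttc
Mcm7 window 1: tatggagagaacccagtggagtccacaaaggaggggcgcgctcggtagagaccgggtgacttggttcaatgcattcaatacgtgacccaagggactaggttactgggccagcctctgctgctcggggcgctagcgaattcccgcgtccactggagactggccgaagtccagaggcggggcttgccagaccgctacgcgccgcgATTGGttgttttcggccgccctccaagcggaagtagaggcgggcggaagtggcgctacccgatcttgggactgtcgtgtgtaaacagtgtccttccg
Cenpf: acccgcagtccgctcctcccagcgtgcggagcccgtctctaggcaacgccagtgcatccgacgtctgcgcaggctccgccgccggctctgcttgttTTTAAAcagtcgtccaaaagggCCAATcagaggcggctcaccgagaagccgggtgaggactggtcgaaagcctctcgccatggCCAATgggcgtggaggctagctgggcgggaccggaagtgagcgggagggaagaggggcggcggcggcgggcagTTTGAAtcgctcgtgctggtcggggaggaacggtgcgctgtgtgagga
Ccnb1: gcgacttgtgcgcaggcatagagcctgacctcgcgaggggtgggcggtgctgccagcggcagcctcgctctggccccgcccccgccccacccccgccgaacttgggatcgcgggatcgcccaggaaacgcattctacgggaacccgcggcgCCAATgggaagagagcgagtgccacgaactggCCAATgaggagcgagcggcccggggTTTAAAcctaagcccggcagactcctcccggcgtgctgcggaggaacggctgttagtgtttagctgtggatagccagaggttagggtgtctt
Cdc20: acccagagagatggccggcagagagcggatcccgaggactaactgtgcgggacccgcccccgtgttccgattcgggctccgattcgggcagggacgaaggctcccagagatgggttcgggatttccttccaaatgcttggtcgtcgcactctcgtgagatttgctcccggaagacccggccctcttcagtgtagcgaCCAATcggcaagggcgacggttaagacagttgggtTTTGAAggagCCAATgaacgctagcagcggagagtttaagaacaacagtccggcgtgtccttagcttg
Mcm7 window 2: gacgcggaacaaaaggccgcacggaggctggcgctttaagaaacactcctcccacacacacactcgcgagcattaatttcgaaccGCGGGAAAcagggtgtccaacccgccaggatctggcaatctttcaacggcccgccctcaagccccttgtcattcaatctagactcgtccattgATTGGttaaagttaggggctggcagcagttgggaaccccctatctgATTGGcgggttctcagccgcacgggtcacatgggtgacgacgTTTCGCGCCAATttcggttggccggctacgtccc

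Both strands were searched for the core of the cell cycle homology region bound by MuvB complexes (TTTGAA or TTTAAA, the latter reading the same on both strands), for the CCAAT box bound by NF-Y (CCAAT, or ATTGG on the other strand) and for 4 E2F forms (TTTCCCGC, TTTCGCGC, TTTGCCGC and TTTGGCGC). The homology region letters were in 21 of the 34 windows (61.8%), against 27.6% of all 32851 RefSeq mouse promoter windows of this length. CCAAT letters were in 26 (76.5%, against 37.4%), and both together in 19 (55.9%, against 10.7%). E2F letters were in 7 windows (20.6%, against 2.26%). In the Mki67 window TTTGAA begins 116 and 98 bases before the start, downstream of 3 CCAAT matches. In the Ccnb1 window TTTAAA begins 42 bases before the start, downstream of CCAAT at 99 and 67. In Cdc20 TTTGAA begins 18 bases before the start, between CCAAT at 53 and at 8. In window 2 of Mcm7 the E2F letters near the 3′ end run into a CCAAT match and share its first letter.

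The homology region and E2F letters fell unevenly over the roles. CCAAT letters were in 7 of 9 licensing, 3 of 4 DNA synthesis and 5 of 6 mitotic kinase and cyclin windows. They were also in 4 of 4 checkpoint, 5 of 6 kinetochore and spindle and 2 of 2 Mki67 and Top2a windows, but in 0 of 3 S phase entry windows. Homology region letters were in 6 of 6 windows of the mitotic kinases and cyclins, 5 of 6 of the kinetochore and spindle genes, 3 of 4 of the checkpoint genes and 2 of 2 of Mki67 and Top2a. They were in 3 of 9 licensing windows, 1 of 4 DNA synthesis windows and 1 of 3 S phase entry windows. E2F letters were in 6 of 9 licensing windows (Mcm7, Mcm6, Mcm5, Mcm3, Cdt1 and Cdc6) and otherwise in the Cdk1 window. The windows of E2f1, Mybl2, Cdc6 and Aurka and window 1 of Mcm7 lie wholly inside the annotated gene, downstream of its 5′ end. They may therefore miss the sequence before the gene's first start. The counts by role rest partly on them, among them the 0 of 3 for E2F letters in S phase entry. A match is a description of letters and no measure of binding.

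**Figure D2:**
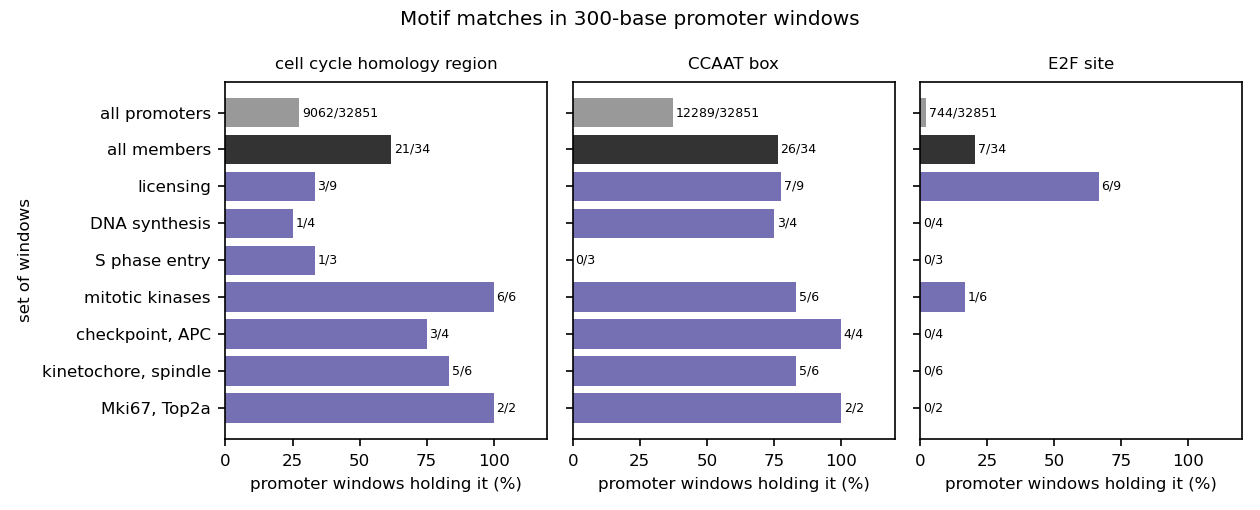
Share of promoter windows (%) that hold each motif, for all RefSeq mouse promoters, for the 34 windows of the cell cycle genes and for each role; the figures beside the bars are windows with a match of windows searched. Homology region letters are in 21 of 34 windows and E2F letters lie mainly in the licensing genes, in 6 of 9 windows.

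The licensing genes load and form the replicative helicase. Mcm7, a helicase subunit, was at 35.6 and 22.2 CPM in the naive libraries, 53.7, 55.7 and 31.7 CPM after first exposure, 45.6, 31.4 and 24.3 CPM in ticks 2x, 23.8, 28.2 and 23.1 CPM in ticks 3x, and 32.1 CPM in the saliva immune library. All first exposure libraries were above all ticks 3x libraries, and first exposure replicate 3 lay between the naive libraries. Mcm4, another subunit, was flatter, at 39.3 and 30.1, then 43.5, 39.8 and 32.8, then 37.5, 40.4 and 26.4, then 22.6, 31.6 and 17.2 CPM in the same order of groups, with 33.6 CPM in the saliva immune library. Its naive, first exposure and ticks 2x libraries overlapped, and its first exposure libraries were all above its ticks 3x libraries. The other 7 were Mcm2, Mcm3, Mcm5 and Mcm6, the loading factors Cdc6 and Cdt1, and Cdc45, which activates the helicase. Their differences between first exposure and naive means ran from 0.43 (Cdt1) to 1.05 (Cdc6) in log2, and those between ticks 3x and first exposure from -1.61 (Mcm5) to -0.55 (Cdt1).

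The DNA synthesis genes had the smallest median difference of any role both in first exposure against naive and in ticks 3x against first exposure. Pcna, the sliding clamp of the polymerases, was at 76.8 and 65.2 CPM in the naive libraries, 86.4, 93.2 and 73.3 CPM after first exposure, 83.8, 91.1 and 59.8 CPM in ticks 2x, 58.3, 67.4 and 47.2 CPM in ticks 3x, and 71.7 CPM in the saliva immune library. Rrm1, the large subunit of ribonucleotide reductase, was at 62.5 and 46.3, then 80.4, 89.6 and 56.1, then 64.2, 56.5 and 38.1, then 41.5, 45.4 and 32.6 CPM, with 52.6 CPM in the saliva immune library. Rrm1 alone of the 40 genes had all ticks 3x libraries below both naive libraries, a smaller share than the 9.58% of all genes tested. Rrm2, the small subunit of the reductase, had group means of 25.7, 42.0, 34.4 and 26.5 CPM, and Tyms, which makes thymidylate, had 14.6, 23.9, 20.1 and 14.8 CPM, in the order naive, first exposure, ticks 2x and ticks 3x.

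Among the genes of S phase entry, Ccna2, the cyclin A of S phase and G2, was at 30.3 and 20.3 CPM in the naive libraries, 56.4, 51.9 and 32.0 CPM after first exposure, 44.2, 36.9 and 21.9 CPM in ticks 2x, 17.8, 28.8 and 11.3 CPM in ticks 3x, and 27.2 CPM in the saliva immune library. Foxm1, a transcription factor of the mitotic wave, was at 19.9 and 16.6, then 42.0, 42.2 and 22.3, then 24.5, 19.5 and 13.6, then 14.0, 17.5 and 9.41 CPM, with 20.1 CPM in the saliva immune library. For both genes every first exposure library lay above both naive libraries and above every ticks 3x library. Mybl2 and E2f1 were singled out after their values were seen, as the widest and nearly the narrowest ranges. Mybl2, which encodes B-MYB, was at 7.69 and 3.04, then 23.2, 26.5 and 4.66, then 20.1, 4.60 and 3.72, then 3.46, 7.39 and 1.79 CPM, with 5.97 CPM in the saliva immune library. First exposure replicates 1 and 2 and ticks 2x replicate 1 stood above the rest, and first exposure replicate 3 lay between the naive libraries. E2f1, the founding E2F factor, was at 9.46 and 7.36, then 11.2, 9.19 and 12.2, then 12.2, 11.1 and 11.3, then 10.4, 12.5 and 6.64 CPM, with 13.2 CPM in the saliva immune library. Its ticks 2x libraries were above both naive libraries, and its other groups overlapped. The E-type cyclins Ccne1 and Ccne2, which start S phase, had group means of 2.88, 5.76, 3.55 and 2.21 CPM and of 6.38, 10.1, 5.93 and 4.20 CPM.

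The mitotic kinases and cyclins followed the block closely. Ccnb1, the cyclin B of mitotic entry, was at 20.1 and 13.2 CPM in the naive libraries, 36.3, 40.4 and 21.1 CPM after first exposure, 27.4, 20.6 and 12.1 CPM in ticks 2x, 11.3, 16.3 and 8.22 CPM in ticks 3x, and 17.2 CPM in the saliva immune library. Cdk1, its kinase partner, was at 15.2 and 11.0, then 26.2, 29.8 and 15.2, then 21.6, 19.4 and 15.6, then 10.6, 13.6 and 5.73 CPM, with 15.4 CPM in the saliva immune library. Cdk1 was above both naive libraries in every ticks 2x library, and every ticks 3x library was below every ticks 2x library. Ccnb2, the kinases Aurka, Aurkb and Plk1, and Birc5 (survivin, of the chromosomal passenger complex) were the other 5. Birc5 was singled out after its values were seen. It was at 9.60 and 8.44, then 25.6, 27.7 and 13.0, then 16.1, 14.9 and 12.7, then 9.03, 12.1 and 5.91 CPM, with 14.7 CPM in the saliva immune library. Its first exposure and ticks 2x libraries were all above both naive libraries. Separately, 21% of all genes tested were so placed after first exposure and 14.7% in ticks 2x.

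The checkpoint genes hold anaphase back until chromosomes are attached, and the anaphase promoting complex then releases them. Cdc20, the activator of that complex, was at 17.4 and 13.3 CPM in the naive libraries, 30.2, 34.4 and 21.0 CPM after first exposure, 23.8, 26.4 and 14.9 CPM in ticks 2x, 13.0, 14.8 and 7.32 CPM in ticks 3x, and 18.9 CPM in the saliva immune library. Bub1b, a checkpoint protein that restrains Cdc20, was at 16.5 and 11.9, then 36.6, 36.8 and 17.6, then 24.6, 17.9 and 8.57, then 9.44, 16.7 and 5.58 CPM, with 14.8 CPM in the saliva immune library. In both genes the first exposure libraries were above all naive and all ticks 3x libraries. The checkpoint kinase Bub1 and Ube2c, the ubiquitin-conjugating enzyme of the complex, had group means of 6.92, 17.2, 8.73 and 5.00 CPM and of 12.9, 26.5, 18.1 and 11.7 CPM.

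The kinetochore, spindle and motor genes attach and move chromosomes. Cenpf, a kinetochore protein, was at 27.0 and 26.0 CPM in the naive libraries, 56.1, 54.1 and 33.0 CPM after first exposure, 35.3, 29.8 and 16.8 CPM in ticks 2x, 18.5, 26.0 and 13.1 CPM in ticks 3x, and 27.0 CPM in the saliva immune library. Tpx2, which activates Aurora A on the spindle, was at 22.4 and 14.5, then 40.4, 43.8 and 25.9, then 32.7, 24.9 and 17.2, then 12.9, 21.0 and 8.77 CPM, with 21.6 CPM in the saliva immune library. First exposure stood above naive and above ticks 3x in every library of both genes. The other 6 were the centromeric histone Cenpa, the kinetochore motor Cenpe, the spindle motors and cytokinesis kinesins Kif11, Kif20a and Kif23, and the microtubule-binding Nusap1. Cenpa had the largest first exposure minus naive difference of this role, 1.32 in log2, and Cenpe the lowest ticks 3x minus first exposure difference, -1.51.

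Mki67, the proliferation antigen that coats mitotic chromosomes, was at 124 and 91.1 CPM in the naive libraries, 269, 266 and 122 CPM after first exposure, 193, 115 and 63.0 CPM in ticks 2x, 67.7, 108 and 34.9 CPM in ticks 3x, and 109 CPM in the saliva immune library. Top2a, the topoisomerase that disentangles chromosomes, was at 77.7 and 60.3, then 138, 132 and 78.2, then 92.1, 80.3 and 42.6, then 48.6, 69.4 and 30.1 CPM, with 67.5 CPM in the saliva immune library. First exposure replicate 3 was just below the higher naive library for Mki67 and just above it for Top2a. In both genes every ticks 3x library was below every first exposure library.

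**Figure D3:**
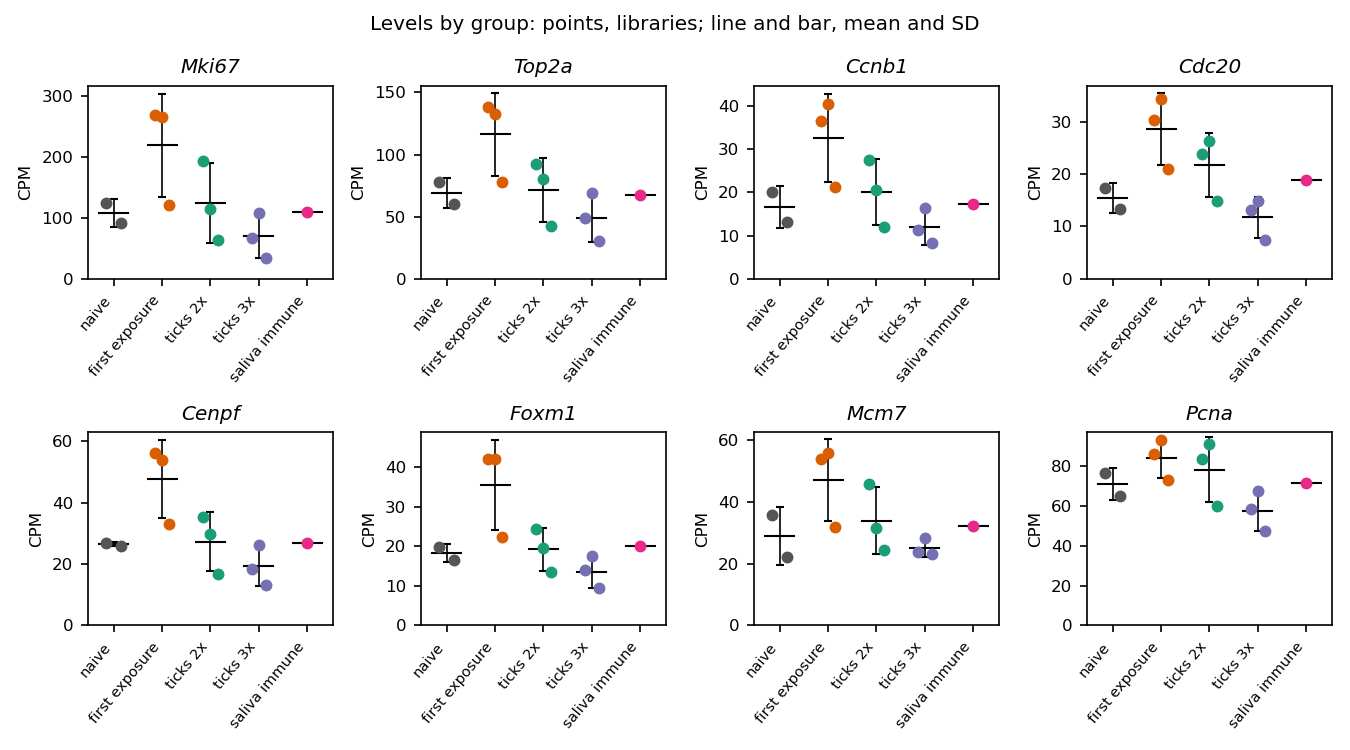
CPM of 8 cell cycle genes by group; points are libraries, horizontal lines group means and vertical bars the SD (none for the single saliva immune library), on axes that start at 0. In each gene first exposure replicates 1 and 2 lie above the naive libraries and replicate 3 lies lower, and the 3 ticks 3x libraries lie below the 3 first exposure libraries.

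The comparison of first exposure with naive skin asks what a first infestation does. All 40 genes had a higher mean after first exposure (57.9% of all genes tested did), by a median of 0.84 on the log2(CPM + 1) scale, against 0.08 over all genes tested. None passed limma's test at an adjusted p under 0.05, which 0.0117% of all genes tested passed, and 10 passed at an unadjusted p under 0.05 in the higher direction, against 10.1% of all genes tested. These 10 were Aurka, Birc5, Ccnb2, Cdc20, Cenpa, Foxm1, Kif20a, Tpx2, Tyms and Ube2c. For 22 genes every first exposure library was above both naive libraries, against 21% of all genes tested. The largest difference was that of Mybl2 (1.39, SE 0.85, limma's adjusted p = 0.434) and the lowest adjusted p that of Birc5 (1.14, SE 0.34, limma's adjusted p = 0.163). Mki67 differed by 0.95 (SE 0.57, limma's adjusted p = 0.427), Foxm1 by 0.87 (SE 0.35, limma's adjusted p = 0.264) and Mcm4 by 0.16 (SE 0.27, limma's adjusted p = 0.783). By role the median difference ran from 0.56 in the DNA synthesis genes to 0.97 in the checkpoint genes.

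The size of this difference rested on which libraries were used. Without first exposure replicate 3, Birc5 alone was called (1.47, SE 0.28, limma's adjusted p = 0.0378), where 1.77% of all genes tested were called higher, and 29 genes had an unadjusted p under 0.05, against 17.9% of all genes in the higher direction. Without naive replicate 2 there were 0 at an unadjusted p under 0.05, where the share of all genes in the higher direction was 4.1%. Leaving out 1 library at a time moved the median between 0.54 and 1.09. Other cell types differed along with it: the 23 hair follicle genes found all had higher means after first exposure (median 2.59, none called), with list means of 7.41 and 0.88 in naive skin and 8.98, 9.28 and 1.51 after first exposure. All 8 adipocyte genes were lower, with list means of 8.14 and 8.46 against 7.34, 6.49 and 6.80. Basal keratinocyte list means overlapped, at 8.42 and 9.09 in naive skin and 8.37, 7.95 and 9.23 after first exposure. With the follicle mean as a covariate the median of the cell cycle genes was 0.55, 0 were called and 24 had an unadjusted p under 0.05, against 11.5% of all genes in the higher direction. The part of other cell types in the result was not tested beyond that. In bulk skin a different number of dividing cells and a different amount of RNA per cell cannot be told apart.

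**Figure D4:**
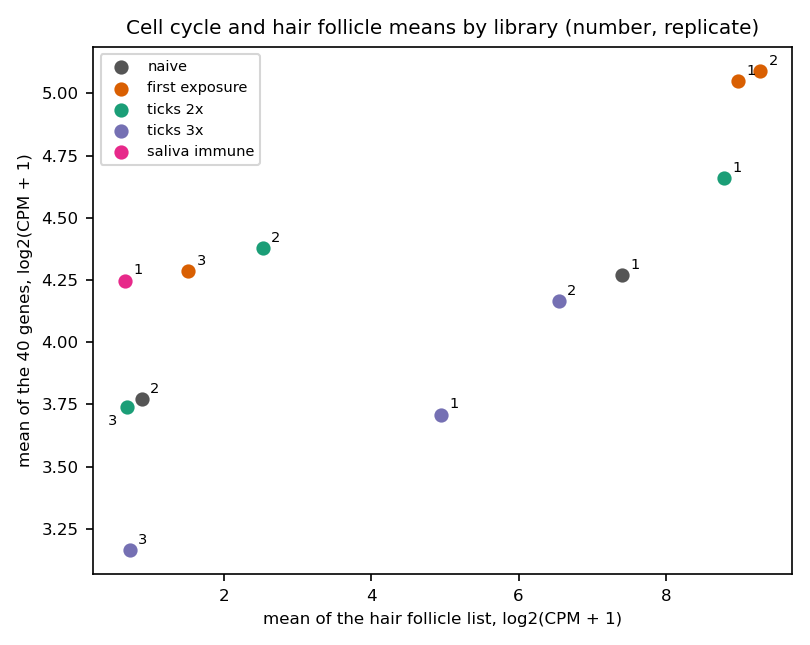
Mean of the 40 cell cycle genes (y axis) against the mean of 23 hair follicle genes (x axis), both as log2(CPM + 1), for each of the 12 libraries, coloured by group and numbered by replicate. First exposure replicates 1 and 2 and ticks 2x replicate 1 are high on both axes. First exposure replicate 3, ticks 2x replicate 2 and the saliva immune library have low follicle means with cell cycle means of 4.25 to 4.38. Naive replicate 2, ticks 2x replicate 3 and ticks 3x replicate 3 also have low follicle means, with lower cell cycle means of 3.77, 3.74 and 3.16.

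Ticks 3x against first exposure gave the widest separation. All 40 genes had a lower mean in ticks 3x, by a median of -1.20 against -0.04 over all genes tested, where 53.8% of genes tested were lower. For 34 genes every ticks 3x library was below every first exposure library, against 12.2% of all genes tested, the other 6 being Aurkb, Ccne1, Cdt1, Cenpa, E2f1 and Mybl2. No gene of the 40, and 0% of all genes tested, had a limma adjusted p under 0.05, whereas 36 of the 40 had an unadjusted p under 0.05 in the lower direction, against 9.58% of all genes tested. The 4 that did not were Ccne1, Cdt1, E2f1 and Rrm2. Mki67 was at 70.1 ± 36.5 CPM (SD, n = 3) against 219 ± 84.0 CPM (SD, n = 3), a log2 difference of -1.68 (SE 0.51, limma's adjusted p = 0.194).

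The adjusted p-values of the 40 genes ran from 0.133 to 0.675. The lowest belonged to Kif20a (-1.39, SE 0.31, limma's adjusted p = 0.133), followed by Foxm1 (-1.30, SE 0.31, limma's adjusted p = 0.142) and Cdc20 (-1.24, SE 0.30, limma's adjusted p = 0.145). Ccnb1 differed by -1.37 (SE 0.36) and Cdk1 by -1.19 (SE 0.33). Pcna differed by -0.55 (SE 0.19) and Mcm4 by -0.71 (SE 0.24). E2f1 stood apart with -0.16 (SE 0.22, limma's adjusted p = 0.675). By role the medians were -0.65 for DNA synthesis, -0.93 for licensing, -1.17 for S phase entry, -1.19 for the mitotic kinases and cyclins, -1.32 for kinetochore and spindle, -1.36 for the checkpoint genes and -1.47 for Mki67 and Top2a.

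**Figure D5:**
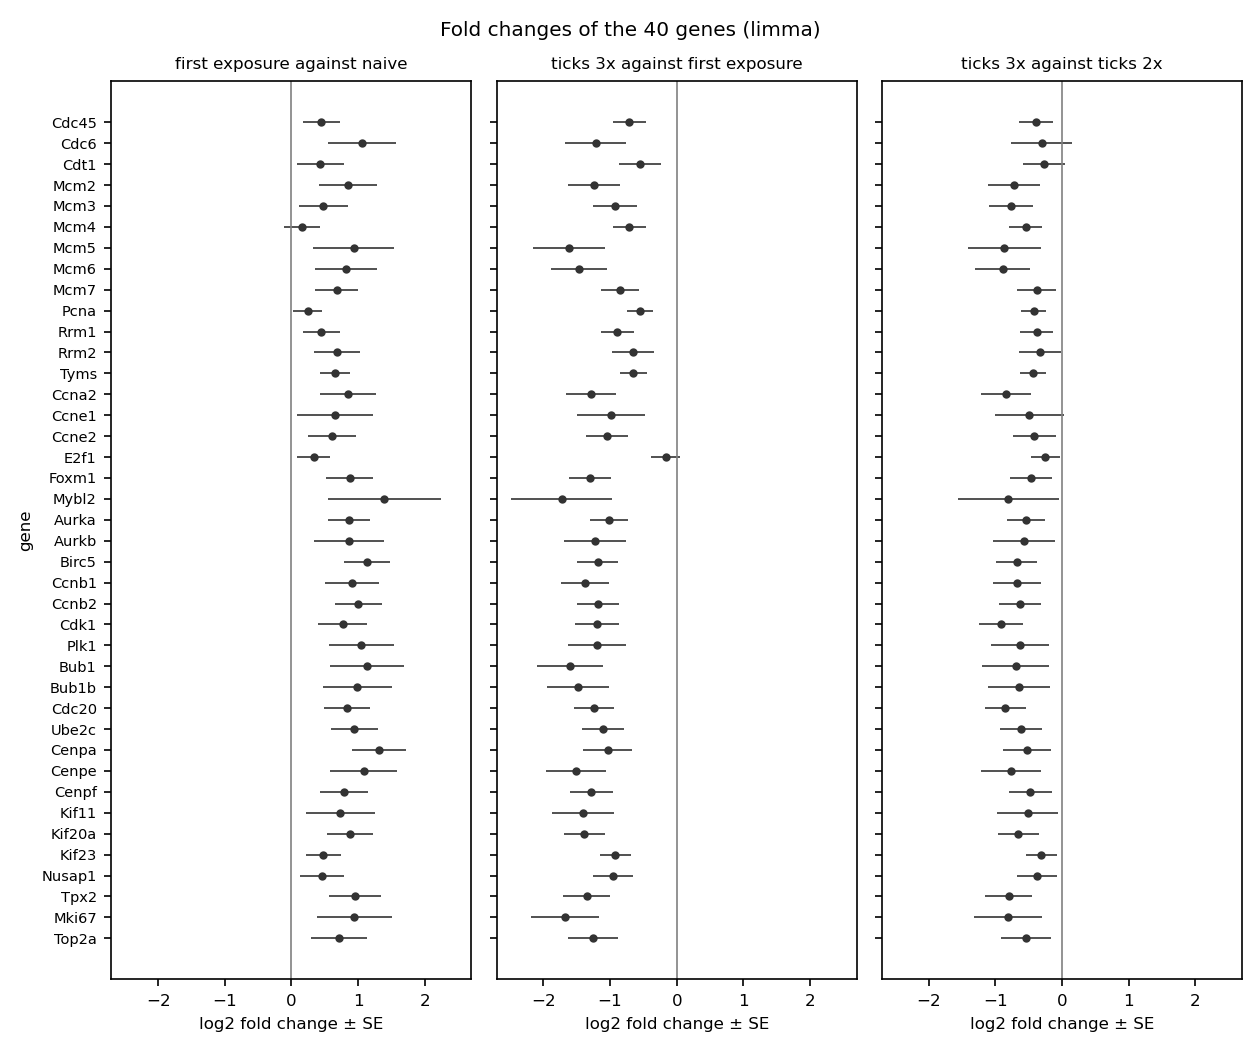
Log2 fold change (limma, on log2(CPM + 1)) of each of the 40 genes, points with SE bars, for first exposure against naive, ticks 3x against first exposure and ticks 3x against ticks 2x; the first 2 panels share the first exposure libraries and the last 2 share the ticks 3x libraries. All 40 points are above 0 in the first panel and below 0 in the other panels.

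Here too first exposure replicate 3 decided the calls. Leaving it out kept the first exposure libraries with follicle list means of 8.98 and 9.28, both above every ticks 3x library. Calls over all genes tested then rose from 0% to 3.8% lower and 4.3% higher. Of the 40 genes 20 were called lower in ticks 3x without replicate 3, with a median of -1.50. They were Mcm7, Rrm1, Tyms, Ccne2, Foxm1, Cdk1, Ccnb1, Ccnb2, Aurka, Birc5, Bub1, Cdc20, Ube2c, Cenpe, Cenpf, Kif11, Kif20a, Kif23, Tpx2 and Mki67. Without ticks 3x replicate 3 the median was -0.94, 0 were called and 25 had an unadjusted p under 0.05, against 5.81% of all genes in the lower direction. With the follicle mean as a covariate the median was -0.91, 0 were called, the lowest adjusted p was 0.070 and 37 had an unadjusted p under 0.05, against 10.4% of all genes in the lower direction. The 23 follicle genes were all lower in ticks 3x (median -2.65, list means 4.95, 6.55 and 0.72), as were all 9 melanocyte genes (median -2.42). All 8 adipocyte genes were higher, at list means of 7.75, 8.11 and 8.76, and so were all 8 leukocyte genes (median 0.98, none called). The leukocyte list means overlapped, at 6.08, 6.29 and 4.68 in ticks 3x against 4.55, 3.70 and 5.68 after first exposure. Basal keratinocyte list means also overlapped, at 9.19, 8.95 and 8.85 in ticks 3x against 8.37, 7.95 and 9.23 after first exposure. The lowest basal mean of the 12 libraries was in first exposure replicate 2, which had the highest cell cycle mean. Ticks 3x replicate 3 had the highest skeletal muscle list mean of the 12 libraries, 11.16, against 8.15 and 8.63 in ticks 3x replicates 1 and 2. The part of other cell types in the result was not tested beyond that.

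The ticks 2x libraries lay between. Against first exposure 39 of the 40 genes had lower means in ticks 2x (58.7% of all genes tested did), by a median of -0.55 against -0.08 over all genes tested. None was called by limma's adjusted p, as 0% of all genes tested were. At an unadjusted p under 0.05 there were 4, a share close to the 9.39% of all genes in the lower direction. These were Cenpf, Foxm1, Kif20a and Kif23. For 2 genes, Kif20a and Kif23, the ticks 2x libraries were all below the first exposure libraries. That is a smaller share than the 10.8% of all genes tested. Kif23 differed by -0.61 (SE 0.23, limma's adjusted p = 0.261). Without first exposure replicate 3, 20 genes had an unadjusted p under 0.05, against 16.7% of all genes in the lower direction, and 0 were called. With the follicle covariate the median was -0.27.

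Ticks 3x against ticks 2x asked what a further infestation adds. All 40 genes had lower means in ticks 3x (44.9% of all genes tested did), by a median of -0.56 against 0.03 over all genes tested. Limma's adjusted p called 0 of the 40 and 0% of all genes tested, and 4 genes (Cdc20, Cdk1, Mcm3 and Tpx2) had an unadjusted p under 0.05, against 1.58% of all genes in the lower direction. Cdk1 was at 9.98 ± 3.98 CPM (SD, n = 3) against 18.9 ± 3.01 CPM (SD, n = 3), a difference of -0.92 (SE 0.33, limma's adjusted p = 0.894). In 5 genes, Birc5, Ccne2, Cdc20, Cdk1 and Tyms, every ticks 3x library was below every ticks 2x library, against 4.41% of all genes tested. With the hair follicle covariate 33 genes had an unadjusted p under 0.05, against 5.19% of all genes in the lower direction, and the lowest adjusted p was 0.347. Without ticks 3x replicate 3 the median was -0.33 and 0 genes had an unadjusted p under 0.05, against 0.682% of all genes in the lower direction. Without ticks 2x replicate 1 the count was also 0, against 1.99%.

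Neither repeat group was separated from naive skin. In ticks 2x 32 of 40 genes had means above naive (51.9% of all genes tested did), by a median of 0.21, with 0 called by limma against 0.0352% of all genes tested and 0 at an unadjusted p under 0.05, against 10.9%. Birc5, Cdk1, E2f1 and Tyms were above both naive libraries in every ticks 2x library, against 14.7% of all genes tested. Leaving out naive replicate 2 gave a median of -0.06, leaving out ticks 2x replicate 1 gave -0.01 and leaving out naive replicate 1 gave 0.55, so its direction rested on single libraries. In ticks 3x 36 of 40 genes were below naive (46.8% of all genes tested were), by a median of -0.41, with 0 called by limma against 0.00586% of all genes tested and 0 at an unadjusted p under 0.05, against 6.95%. Rrm1, at 39.8 ± 6.59 CPM (SD, n = 3) against 54.4 ± 11.5 CPM (SD, n = 2), was the gene whose groups did not overlap, against 9.58% of all genes tested. Pooled, the repeat libraries (n = 6) gave 15 genes above and 25 below naive, against 53% and 47% of all genes tested, with a median of -0.07, 0 called by limma against 0.041% of all genes tested and 0 at an unadjusted p under 0.05, against 9.74%.

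The saliva immune library has no replicate. Its cell cycle mean of 4.25 lay within the range of the naive libraries and just below the lowest first exposure library. Of the 40 genes 16 were above both naive libraries (40%, against 44.2% of all genes tested), 0 were below both (against 30.0%) and 24 were below all first exposure libraries (60%, against 23.0%). Its follicle list mean was 0.65, the lowest of the 12 libraries.

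Genes that act around these 40 were read from 7 pathway lists of 101 genes, of which 99 were tested. None was called in any of the 7 comparisons, and the lowest adjusted p was 0.082. In ticks 3x against first exposure 90 of 99 had lower means (median -0.77), against 53.8% of all genes tested. At an unadjusted p under 0.05, 62 were lower and 1 was higher, against 9.58% and 8.2% of all genes tested. In first exposure against naive 89 of 99 had higher means (median 0.60), against 57.9% of all genes tested. At an unadjusted p under 0.05, 23 were higher and 3 lower, against 10.1% and 6.32% of all genes tested. Of the replication fork list, 25 of 25 were lower in ticks 3x than after first exposure, among them Uhrf1, which links replication to DNA methylation, by -1.66 (SE 0.50, limma's adjusted p = 0.193), and the DNA ligase Lig1 by -0.93 (SE 0.25, limma's adjusted p = 0.167). The cytokinesis and spindle list had 18 of 18 lower, with the contractile ring scaffold Anln at -0.75 and the microtubule polymerase Ckap5 at -0.34. The condensin and centromere list had 11 of 11 lower, with the condensin subunit Smc4 at -0.33 and Hjurp, the chaperone of Cenpa, at -0.32. The spindle checkpoint list had 11 of 12 lower, with Zwint, a kinetochore scaffold, at 0.19 above first exposure and Bub3 at -0.24.

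Of the list of D cyclins, their kinases, pocket proteins and E2F factors, which govern G1, the phase before DNA replication, 15 of 18 had lower means in ticks 3x than after first exposure, against 53.8% of all genes tested. Of these 4 had an unadjusted p under 0.05, against 9.58%. The kinase Cdk4 differed by -0.76 (SE 0.35). The 3 that were higher were Ccnd3, Cdk6 and Rbl2, named after their values were seen, with differences of 0.43, 0.10 and 0.29. Of the list of CDK activators and checkpoint kinases 8 of 9 were lower, 5 of them at an unadjusted p under 0.05, against the same shares. The phosphatase Cdc25b differed by -0.04 (SE 0.20). The exception was Wee1, which restrains Cdk1, at 0.47 (SE 0.37). Ccnd1, a D-type cyclin, was at 100 and 73.2 CPM in the naive libraries, 104, 111 and 75.2 CPM after first exposure, 110, 56.7 and 56.6 CPM in ticks 2x, and 60.3, 54.9 and 45.5 CPM in ticks 3x. Ccnd2 was at 290 and 267, then 360, 343 and 186, then 315, 157 and 170, then 174, 197 and 185 CPM. Ccnd1 and Ccnd2 were highest in first exposure replicates 1 and 2 and ticks 2x replicate 1, and Ccnd1 was below every naive and first exposure library in every ticks 3x library. Ccnd3 was at 52.6 and 55.3, then 41.0, 34.1 and 56.9, then 56.8, 65.1 and 83.7, then 63.3, 64.7 and 48.4 CPM, and was lowest in first exposure replicates 1 and 2. Of the 6 inhibitors of the cyclin-dependent kinases tested, 4 had higher means in ticks 3x than after first exposure (median 0.18), against 46.2% of all genes tested, and 1 of them, Cdkn1b, had an unadjusted p under 0.05, against 8.2%. Limma called 0 of the 6 after adjustment. Cdkn1b, which encodes p27, was at 75.8 and 79.9 CPM in the naive libraries, 62.5, 57.9 and 47.1 CPM after first exposure, 79.0, 75.9 and 74.9 CPM in ticks 2x, 96.8, 92.9 and 88.6 CPM in ticks 3x, and 56.4 CPM in the saliva immune library. Its first exposure libraries were below all others of the replicated groups and its ticks 3x libraries above all others, with a log2 difference between them of 0.73 (SE 0.12, limma's adjusted p = 0.082). Cdkn1a, which encodes p21, was nearly flat, from 216 to 314 CPM over the libraries, and differed by -0.25 (SE 0.12, limma's adjusted p = 0.317).

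Some symbols share sequence or position with other genes. Of the 40 genes 8 overlap another tested gene in the annotation (Aurka, Ccna2, Ccne2, Cdc20, E2f1, Kif20a, Mcm7 and Nusap1), and whether reads were counted by strand is not given, so their values may hold reads of the neighbour. The processed pseudogenes Pcna-ps2 and Tyms-ps had values of at most 0.932 and 0.234 CPM.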

How the data were processed

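RNA sequencing of mouse skin gave 12 libraries. The CPM values were deposited by the authors in 1 table of 25070 named genes. Per the submitters' processing notes, STAR and Partek 8.0.19 were used with GRCm38.p6. The annotation, the counting program and its use of strand were not found in those notes. The authors' values hold an added 0.0001 CPM, which was left in. Between 77.6% and 81.4% of low values were whole multiples of 1 read (tolerance 0.02 reads), too few for a count test.

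A gene was tested if 2 or more of the 11 libraries of the replicated groups reached 1 CPM, which 17064 did. Tests used limma 3.58.1 (R 4.3.3) on the log2 of CPM plus a pseudocount of 1, which understates changes of low genes. One fit of 4 groups (7 residual degrees of freedom, variance trend) gave 7 comparisons, with Benjamini-Hochberg adjustment over all genes tested and a threshold of 0.05. The fit was tested on simulated data. SDs are over libraries, and SEs are limma's. The saliva immune library, being alone, entered no fit. Comparisons that share a group share its libraries.

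The 40 genes and all lists were chosen with earlier results of these data known. Values in every library are given for the 2 genes of each role with the highest mean CPM. Birc5, Mybl2 and E2f1 were added after their values were seen. The rule also covered genes called in the fit of 4 groups with no library left out, and none of the 40 was. Genes called only with a library left out were not all given this way. From the pathway lists, Ccnd1, Ccnd2 and Cdkn1a were always named, with up to 2 more per list by mean CPM, and Cdkn1b falls under that rule. Ccnd3, Cdk6 and Rbl2 were added after their values were seen. The alternatives tried were pseudocounts of 0.5 and 0.1, a filter of 5 CPM or none, median-of-ratios scaling, quantile normalization, a fit of only the groups compared, the hair follicle mean as a term, robust moderation and each library left out.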

Additional observations from a re-analysis of the deposited data

Results flagged for a closer look

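The single saliva immune library entered no comparison, and 16 of the 40 cell cycle genes were above both naive libraries in it. That share (40%) was no larger than the 44.2% of all genes tested, and with 1 library the difference has no replicate check.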

How the results depend on the processing

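No paired analysis was possible because the labels carry no replicate numbers that link the groups. The 9 other settings called 0 of the 40 genes in each of the 7 comparisons and kept the sign of the median in each. Leaving out 1 library at a time called 0 to 1 genes in first exposure against naive and 0 to 20 in ticks 3x against first exposure, the highest of both without first exposure replicate 3, and 0 in the other 5 comparisons. Counts at an unadjusted p under 0.05 ranged from 0 to 29 in first exposure against naive, 25 to 38 in ticks 3x against first exposure, 0 to 20 in ticks 2x against first exposure and 0 to 21 in ticks 3x against ticks 2x. In the last, median-of-ratios scaling gave 12, quantile normalization 13 and the follicle covariate 33, against 4 as reported. The pooled repeat median against naive ranged from -0.32 without naive replicate 2 to 0.23 without naive replicate 1. Among single genes, Mcm4 in first exposure against naive ranged from -0.029 without naive replicate 2 to 0.34 without naive replicate 1. E2f1 in ticks 3x against first exposure ranged from -0.34 without ticks 3x replicate 2 to 0.068 without ticks 3x replicate 3. The cause of these shifts was not tested. With 2 to 3 libraries a group the precision is limited, and every value of the 40 genes was above the floor of 3 reads.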
